A study of Oryza sativa with 8 samples.

Results

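The MADS-box genes are a family of transcription factor genes, and 31 of them could be read in rice roots, out of 17905 genes with a probe set on the array. They were chosen as all genes whose array symbol, RefSeq rice symbol or RefSeq synonym, with a leading Os removed, is MADS followed by a number. Where a gene had several probe sets, the one with the highest mean signal over the 8 arrays was used. All 31 matched through RefSeq synonyms, since the symbols themselves are of the LOC type, and 27 of the 31 had 1 probe set. The RefSeq entry of MADS18 also lists the names MADS2 and MADS28, and MADS2 was read from its own entry. By the platform annotation no member shared a listed probe set with another gene. Whether the probes also bind other transcripts was not tested.

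Roots of the indica rice cultivar IR64 were compared in 4 groups of 2 arrays each. Transgenic plants (T) carried OsPSTOL1, a protein kinase gene tied to tolerance of phosphorus (P) deficiency, behind the constitutive 35S promoter, and null segregants (NT) lacked the transgene. Potted plants of both genotypes were kept in a greenhouse on soil short of P or on soil with added P fertiliser, and total root RNA of each sample went onto 1 Affymetrix rice array. Roots in P-deficient soil were taken at heading and P-fertilised roots at mid-tillering, when side shoots form, so soil and stage cannot be told apart in any soil difference given here. The labels call the replicates biological without saying which plants or how many transgenic events they came from, so p-values measure the spread between these arrays.

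MADS-box proteins bind DNA as dimers and larger complexes, and different complexes specify different organs. In the flower, members of the A, B, C, D and E classes specify floral organs and ovules. Outside it, AP1/FUL-like, SOC1-like and SVP-like members control the switch from leafy growth to flowering in the shoot. ANR1-like and AGL12-like members are known from roots, where Arabidopsis ANR1 is known for lateral root growth in response to nitrate.

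The deposited values are linear signals (intensity), already scaled to a common level, with summed intensity per array from 8060018 to 8802152. The 3-prime to 5-prime ratio of the GAPDH control probe sets, a measure of RNA integrity, was 198 on replicate 1 and 3.05 on replicate 2 of T in P-deficient soil, against 1.15 and 1.21 in NT there and 1.55 to 2.16 in P-fertilised soil. The root marker LSI1, a silicon channel gene, read 2015 to 2772 in P-deficient and 3248 to 3870 in P-fertilised roots, and the 8 root markers with a probe set summed to 2570 to 4506 and 6658 to 7713. The 9 anther and spikelet markers with a probe set read 41.4 or less on every array, with summed signals of 74.8 to 118 in P-deficient and 87.8 to 106 in P-fertilised roots. The 4 green tissue markers summed to 144 to 309 in P-deficient roots and 128 to 916 in P-fertilised roots, the highest sum on T replicate 2.

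Values were analysed as log2(value + 32), and every log2 difference is on that scale, where changes of dim genes come out too small. Of the 31 members, 20 passed the filter on dim probe sets and were tested in limma, with p-values adjusted by the Benjamini-Hochberg method over all 34316 probe sets tested. Signals of different probe sets cannot be set against each other, so each gene was compared only with itself. In bulk roots, fewer cells of a type and less RNA per cell cannot be told apart.

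The other 11 members, MADS3, MADS5, MADS6, MADS7, MADS13, MADS20, MADS21, MADS29, MADS30, MADS33 and MADS34, read between 0.2 and 15.9 on every array and were not tested. Among them were both D class ovule genes, both Bsister genes (a class known from ovules and seeds), and 3 of the 5 SEP-like (E class) genes. Of these 11, MADS13 (an ovule identity gene) had all 4 P-deficient arrays above all 4 P-fertilised arrays, an order seen in 8.04% of all dim probe sets, and 0 of 11 had the opposite order, seen in 3.04%.

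**Figure D1:**
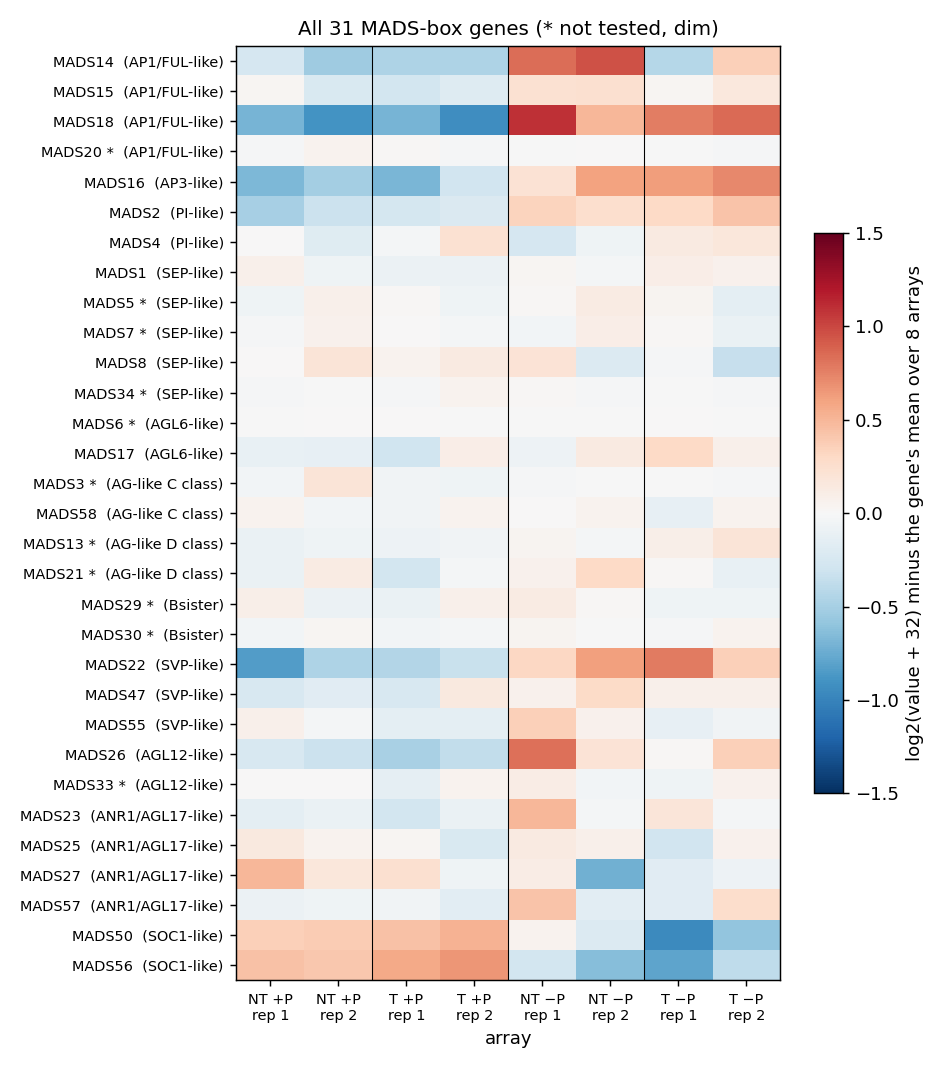
Signal of all 31 MADS-box genes on the 8 arrays, as log2(value + 32) minus each gene's own mean over the arrays, so that colours compare arrays within a gene and not genes with each other. Genes are ordered by class, an asterisk marks the 11 dim genes that were not tested, −P stands for P-deficient soil at heading and +P for P-fertilised soil at mid-tillering. MADS18, MADS16, MADS2 and MADS22 are higher on all 4 −P arrays, and MADS50 and MADS56 are lower.

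Between the soils, over both genotypes, 9 of the 20 tested MADS-box genes changed. MADS2, MADS14, MADS15, MADS16, MADS18, MADS22 and MADS26 rose in P-deficient roots at heading, and MADS50 and MADS56 fell. That is 45% of the tested members, against 47.1% of all 34316 probe sets and 57.8% of the 16166 genes tested with 1 probe set each, so the share called was no higher than the background. Of all probe sets 22.3% were higher and 24.8% lower, and of genes with 1 probe set each 27.4% and 30.4%. Of the tested members 7 were higher and 2 lower. Without overlap between the arrays of the soils, 7 tested members were higher (MADS23 in place of MADS14) and 2 lower, against 20.8% and 23% of all tested probe sets. The median difference was 0.20 over the 20 tested members and 0.01 over all tested probe sets. Of the tested members, MADS15 and MADS23 reached the filter limit only through P-deficient roots and MADS8 only through P-fertilised roots, so the counts and the median over tested members are a description. Without the filter 10 of all 31 members passed, 8 higher and 2 lower, against 29% of all 57194 probe sets. Without the filter the median was 0.04 over all 31 members and 0.02 over all probe sets.

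The AP1/FUL-like genes act in the shoot downstream of florigen, where they promote the change of the apex to an inflorescence. Of 4 such genes, 3 were tested and all 3 rose over both genotypes. Of all probe sets 22.3% were called higher, and of genes with 1 probe set each 27.4%. As MADS15 reached the filter limit only through P-deficient roots, this count is a description. MADS18 (LOC4343851, a gene whose overexpression speeds flowering) had the largest difference of any tested member over both genotypes. In P-deficient soil it read 305.1 and 190.5 in NT and 236 and 252 in T, against 64.7, 52.7, 65.3 and 50.1 in P-fertilised soil. The 2 soils did not overlap, and T and NT overlapped in both. The mean signal was 4.23-fold higher in P-deficient roots, with a log2 difference of 1.61 ± 0.15 (SE, n = 4 arrays per soil, limma adjusted p = 5.85e-05). Within the genotypes MADS18 rose by 1.60 ± 0.22 in NT (limma adjusted p = 0.000851) and 1.63 ± 0.22 in T (limma adjusted p = 0.00069).

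MADS14 (LOC4334140) is a close relative of MADS15 and is used as a marker of the reproductive shift at the shoot apex. In P-deficient soil it read 87.4 and 97.6 in NT but 17.7 and 53.4 in T. In P-fertilised soil it read 24 and 14 in NT and 16.3 and 16.4 in T. The NT arrays were therefore clearly parted by soil, while T replicate 1 of P-deficient soil lay among the P-fertilised arrays. Over both genotypes MADS14 rose by 0.86 ± 0.17 (limma adjusted p = 0.00335, n = 4 arrays per soil). In NT alone the rise was 1.29 ± 0.24 (limma adjusted p = 0.00405), a 4.87-fold difference in mean signal. In T the difference was 0.43 ± 0.24 and did not pass (limma adjusted p = 0.206). It was 0.82 and passed without T replicate 1, the array with the GAPDH ratio of 198 (limma adjusted p = 0.0173), and 0.92 and passed with that ratio as a covariate (0.0156). Without T replicate 2 it was 0.04 (limma adjusted p = 0.901), so the value in T turned on which of these 2 arrays was kept.

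MADS15 (LOC4342214), which with MADS14 acts in inflorescence meristem identity, was dim throughout. In P-deficient soil it read 22.5 and 23.3 in NT and 15.8 and 20.2 in T, and in P-fertilised soil 15.7 and 7.7 in NT and 6.6 and 8.8 in T. All 4 P-deficient arrays lay above the P-fertilised arrays, the closest pair at 15.8 and 15.7. The rise of 0.33 ± 0.09 passed over both genotypes (limma adjusted p = 0.0173) but not in NT (0.0846) or in T (0.0831) alone. It no longer passed when P-deficient T replicate 2 (0.0572), P-fertilised T replicate 1 (0.0615) or P-fertilised NT replicate 2 (0.0651) was left out. MADS15 reached the filter limit only through the P-deficient arrays. Without any filter its limma adjusted p over both genotypes was 0.0317. Its 3 other probe sets were too dim to test, overlapped between soils and read 3.1 or less on every array, except for 16.4 and 9.2 by 2 of them on NT replicate 1 of P-deficient soil. MADS20, the fourth AP1/FUL-like gene, read 0.8 to 2.4 on all arrays.

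MADS14 had 4 probe sets, and 3 of them passed the filter. The second read 87.9 and 96.7 in NT and 38 and 70.9 in T in P-deficient soil, against 4.6 to 10.8 on the P-fertilised arrays. By this probe set no array of one soil overlapped the other, with differences of 1.57 ± 0.19 in NT (limma adjusted p = 0.000395) and 1.21 ± 0.19 in T (limma adjusted p = 0.00136). A further one read 31.4 and 35.2 in NT and 8.5 and 16.2 in T of P-deficient soil and 3.4 or less in P-fertilised soil, with lower differences that also passed (0.91 ± 0.12 in NT, limma adjusted p = 0.000871, and 0.40 ± 0.12 in T, limma adjusted p = 0.036). The name of the highest probe set ends in _x_at, the array maker's mark for probes that may also bind other transcripts. The 2 further probe sets reached the filter limit only through the P-deficient arrays, so they had to differ if they were tested at all, and they are given as a description. Without any filter they had limma adjusted p-values of 0.0062 and 0.0449 in T.

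**Figure D2:**
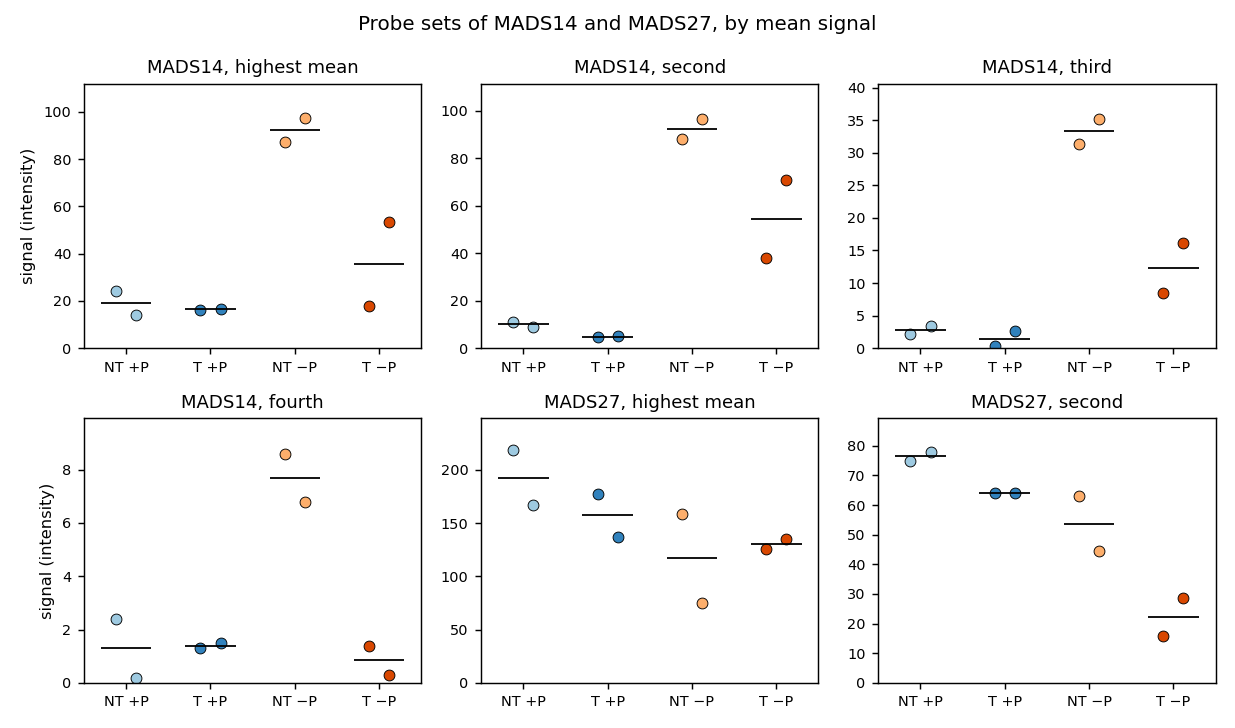
Signal (intensity, linear axes from 0) of the 4 probe sets of MADS14 and the 2 of MADS27 in the 4 groups, with 1 point per array and a bar at the mean of each group of 2. In each MADS14 panel both NT −P arrays lie highest, and in the first 3 the T −P arrays come next, except that T −P replicate 1 of the first panel, at 17.7, lies among the +P arrays.

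The B class genes specify stamens and lodicules, the small organs that open the rice floret. MADS16 (LOC4342047), the rice AP3-like gene also known as SUPERWOMAN1, read 589.1 and 780.8 in NT and 799.7 and 850.4 in T in P-deficient roots. In P-fertilised roots it read 304.1 and 343.5 in NT and 301.9 and 408 in T. The soils did not overlap, and mean signal was 2.22-fold higher in P-deficient soil. MADS16 rose by 1.08 ± 0.14 (limma adjusted p = 0.000326), and mean signal rose 2.12-fold in NT and 2.32-fold in T (limma adjusted p = 0.00555 and 0.00236). It read 301.9 or more on all 8 root arrays.

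MADS2 (LOC4325001), a PI-like partner gene of MADS16 with a main role in lodicules, read 110.1 and 101.8 in NT and 106.2 and 119.8 in T in P-deficient roots. In P-fertilised roots it read 47.7 and 58.2 in NT and 61.6 and 65.3 in T, so again no array of one soil overlapped the other. MADS2 rose by 0.65 ± 0.11 (limma adjusted p = 0.0012), and in NT and T by 0.70 ± 0.15 and 0.60 ± 0.15 (limma adjusted p = 0.00811 and 0.0147). Its duplicate MADS4, the other PI-like gene, read 54.1 to 83 in P-deficient and 58.2 to 88.6 in P-fertilised roots. The difference of MADS4 was -0.01 ± 0.12 (limma adjusted p = 0.952). The difference between the paralogs was not itself tested.

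SVP-like genes in rice are linked to meristem identity and to damping of brassinosteroid responses. MADS22 (LOC4330805) read 409.3 and 511.5 in NT and 578 and 422.5 in T in P-deficient roots, and 166.4, 226, 229.4 and 250.5 in P-fertilised roots in the same order of genotypes. It was 2.2-fold higher in mean signal in P-deficient soil, with no overlap between the soils. MADS22 rose by 1.03 ± 0.15 (limma adjusted p = 0.000633), by 1.11 ± 0.21 in NT (0.0047) and by 0.95 ± 0.21 in T (0.0088). The other SVP-like genes did not pass. MADS47 read 221.2 to 264.6 in P-deficient and 173.8 to 236.2 in P-fertilised roots (0.25 ± 0.13, limma adjusted p = 0.141). MADS55 read 52.7 to 85.4 and 51.2 to 65.1 (0.12 ± 0.11, limma adjusted p = 0.406).

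The rise of MADS22 in T alone lost its call without T replicate 1 of P-deficient soil (0.74, limma adjusted p = 0.0545), without T replicate 1 of P-fertilised soil (0.90, limma adjusted p = 0.0596) and after the GAPDH ratio was added as covariate (0.69, limma adjusted p = 0.0935). The rise of MADS2 in T alone lost it without T replicate 2 of P-deficient soil (limma adjusted p = 0.07) and without T replicate 1 (0.0861) or 2 (0.0689) of P-fertilised soil. In NT alone it did so without NT replicate 1 of P-fertilised soil (0.0707).

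MADS26 (LOC4344493) is an AGL12-like gene, a class known from roots, and in rice it has been described as a negative regulator of pathogen resistance and drought tolerance. It read 357 and 219.8 in NT and 190.2 and 249.2 in T in P-deficient roots, against 153.1, 142.6, 124.1 and 137.6 in P-fertilised roots. The P-deficient arrays all lay above the P-fertilised ones, with a wide gap between the NT replicates. MADS26 rose by 0.71 ± 0.16 over both genotypes (limma adjusted p = 0.00692) and by 0.80 ± 0.23 in NT (0.0284), while 0.62 ± 0.23 in T did not pass (0.0671). The call in NT was lost on the 4 NT arrays alone (0.0587), when NT replicate 1 of P-deficient soil was left out (0.49, limma adjusted p = 0.106) and when either P-fertilised NT array was (0.099 and 0.137). Its class mate MADS33 read 8.4 or less on every array.

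The SOC1-like genes moved the other way. SOC1 integrates flowering signals in Arabidopsis. In rice MADS50 promotes flowering in long days, whereas MADS56 delays it. MADS56 (LOC4349237) read 133 and 96.5 in NT and 83.3 and 121.8 in T in P-deficient roots, and 238.4, 232.9, 265.3 and 284.3 in P-fertilised roots. Mean signal was 2.35-fold higher in P-fertilised roots, and no arrays overlapped. MADS56 fell by 1.04 on the log2 scale (SE 0.14, limma adjusted p = 0.000392), and passed in NT, where mean signal was 2.05-fold lower (limma adjusted p = 0.0101), and in T, where it was 2.68-fold lower (limma adjusted p = 0.00193). The call in NT was lost when P-fertilised NT replicate 1 (0.062) or 2 (0.0583) was left out.

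MADS50 (LOC4331445) read 50.3 and 36.6 in NT and 9 and 20.7 in T in P-deficient roots, against 69.9, 71.6, 75.4 and 81.5 in P-fertilised roots. All P-deficient arrays lay below all P-fertilised arrays, and within P-deficient soil both T arrays lay below both NT arrays. MADS50 fell by 0.85 over both genotypes (SE 0.12, limma adjusted p = 0.000558). In T it fell by 1.25 (SE 0.17, limma adjusted p = 0.000767), a 5.28-fold difference in mean signal that was 3.79-fold without T replicate 1, the array with the GAPDH ratio of 198, and 8.72-fold without T replicate 2. In NT the difference was -0.45 ± 0.17 and did not pass (limma adjusted p = 0.0777). It passed in NT with the GAPDH ratio as a covariate.

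**Figure D3:**
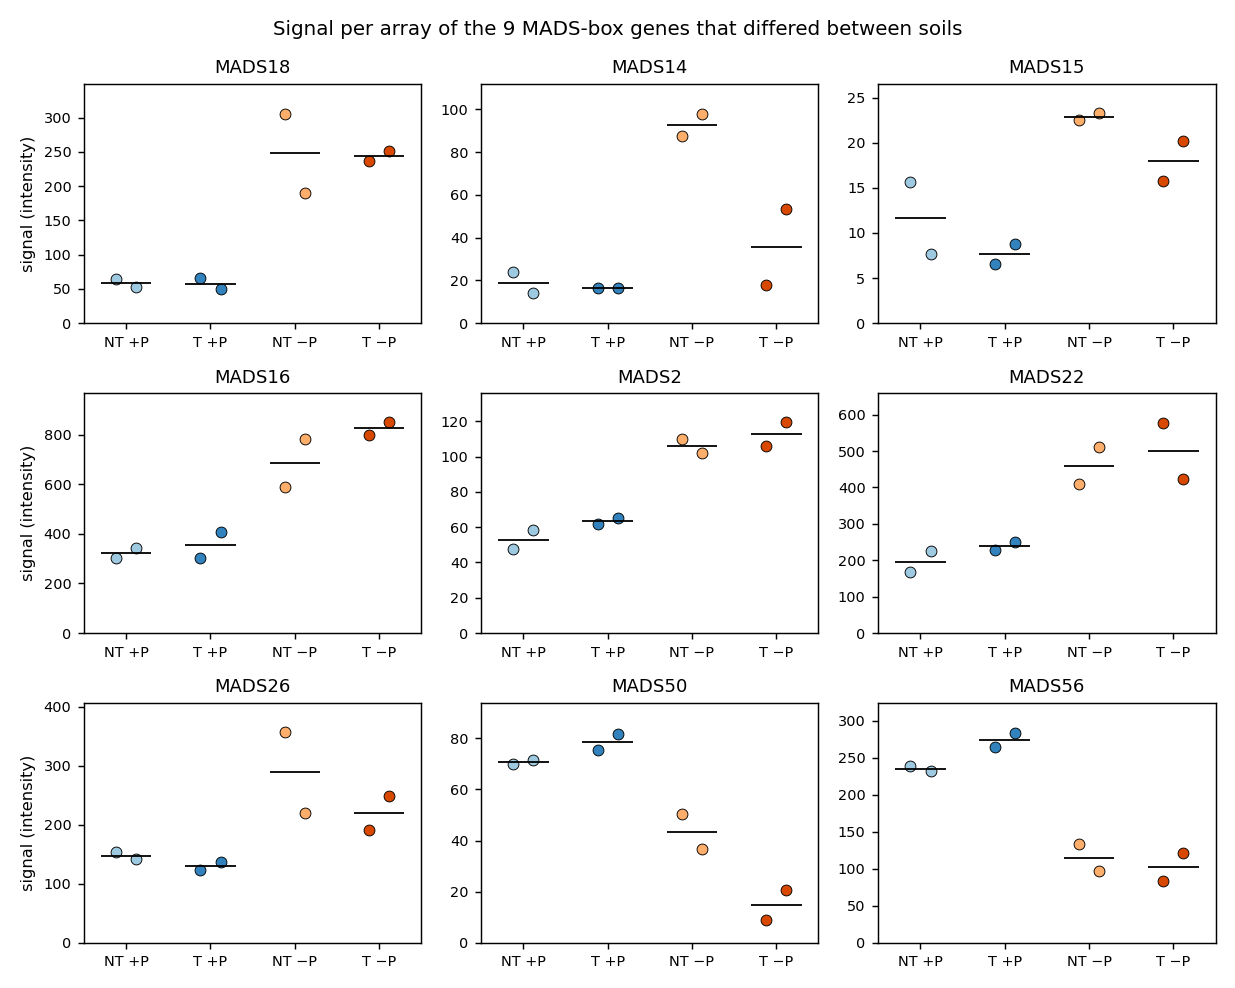
Signal (intensity, linear axes from 0) of the 9 MADS-box genes that changed between soils, with 1 point per array and a bar at the mean of each group of 2. Points of −P soil (orange) lie above those of +P soil (blue) for MADS18, MADS15, MADS16, MADS2, MADS22 and MADS26 and below them for MADS50 and MADS56, while for MADS14 1 T −P array, at 17.7, lies among the +P arrays.

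The 4 ANR1/AGL17-like genes, which include nitrate-responsive root genes, did not pass by their highest probe sets. MADS27, a gene linked in rice to nitrate-dependent root growth, read 158.8 and 75.3 in NT and 125.5 and 135.5 in T in P-deficient roots, and 218.6, 166.6, 177.2 and 137.3 in P-fertilised roots (-0.43 ± 0.19, limma adjusted p = 0.103). MADS25, also linked to nitrate-dependent root growth, read 22.9 to 41.3 and 25.2 to 42.1, with a difference of 0.00 to the 2nd decimal (SE 0.12, limma adjusted p = 0.988). MADS23 read 13.2 to 33 in P-deficient and 6.2 to 11.1 in P-fertilised roots, so its arrays did not overlap, but its difference of 0.31 ± 0.13 did not pass the test (limma adjusted p = 0.0751). MADS57, known for a role in tiller outgrowth, read 25.3 to 54.9 and 26.1 to 30.2 (0.18 ± 0.15, limma adjusted p = 0.372).

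Both probe sets of MADS27 were lower in P-deficient roots, but over both genotypes only the second passed with no array left out. The difference between the probe sets was not tested. The second read 62.9 and 44.6 in NT and 15.7 and 28.5 in T in P-deficient roots, against 63.9 to 78 in P-fertilised roots. By it MADS27 fell by 0.59 over both genotypes (SE 0.12, limma adjusted p = 0.00432) and by 0.84 in T (SE 0.17, limma adjusted p = 0.00612), and the difference in NT was -0.35 ± 0.17 (limma adjusted p = 0.164). Its lowest values are on the T arrays with GAPDH ratios of 198 and 3.05, whose part was not tested. The highest probe set reached the threshold over both genotypes and in NT once P-deficient NT replicate 1 was left out, and MADS23 did once replicate 2 was.

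Of the SEP-like, AGL6-like and C class genes, 4 were bright enough to test and none of them passed. MADS1, a SEP-like gene of spikelet identity, read 38.8 to 45.9 in P-deficient and 36.3 to 44.7 in P-fertilised roots (0.08 ± 0.09, limma adjusted p = 0.518). MADS8, also SEP-like, had a difference of -0.19 ± 0.12 (limma adjusted p = 0.249). MADS17, an AGL6-like gene, differed by 0.22 ± 0.12 (limma adjusted p = 0.16). MADS58, a C class gene of floral meristem determinacy, read 6.7 to 11.9 on all arrays and differed by -0.01 ± 0.08 (limma adjusted p = 0.953).

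Some members are next to each other in the RefSeq gene table of assembly ASM3414082v1, with 0 protein-coding genes between them. MADS34, a SEP-like gene of panicle form that acts together with the AP1/FUL-like genes, lies next to MADS14 and read 0.3 to 2.1 on every array. MADS13 and MADS33 are also neighbours, and both were dim. MADS1 lies next to DL, a gene of carpel identity and leaf midrib, which read 2.7 to 21.1 (-0.20 ± 0.13, limma adjusted p = 0.239).

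Within single genotypes, 7 of the 20 members passed in NT (6 higher and 1 lower, 35%) and 6 in T (4 higher and 2 lower, 30%). The background in NT was 32.5% of all probe sets (15.5% higher and 17.1% lower). For genes with 1 probe set each it was 42% (18.9% higher and 23% lower). In T it was 35.7% of all probe sets (15.5% higher and 20.2% lower) and 45.5% of such genes (21.4% and 24.2%). MADS2, MADS16, MADS18, MADS22 and MADS56 passed in both. MADS14 and MADS26 passed in NT and not in T, and MADS50 in T and not in NT. The difference of the soil effects between genotypes was tested as an interaction, and 0 of 20 members passed in limma. An unadjusted p under 0.05 was seen for 2 members (MADS14 and MADS50) and for 2032 of all 34316 probe sets. Of all 34316 probe sets 0 passed the interaction too (0%), so these lists are not shown to differ between T and NT. The number in NT was 4 without NT replicate 1 of P-fertilised soil, as MADS2, MADS26 and MADS56 no longer passed.

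**Figure D4:**
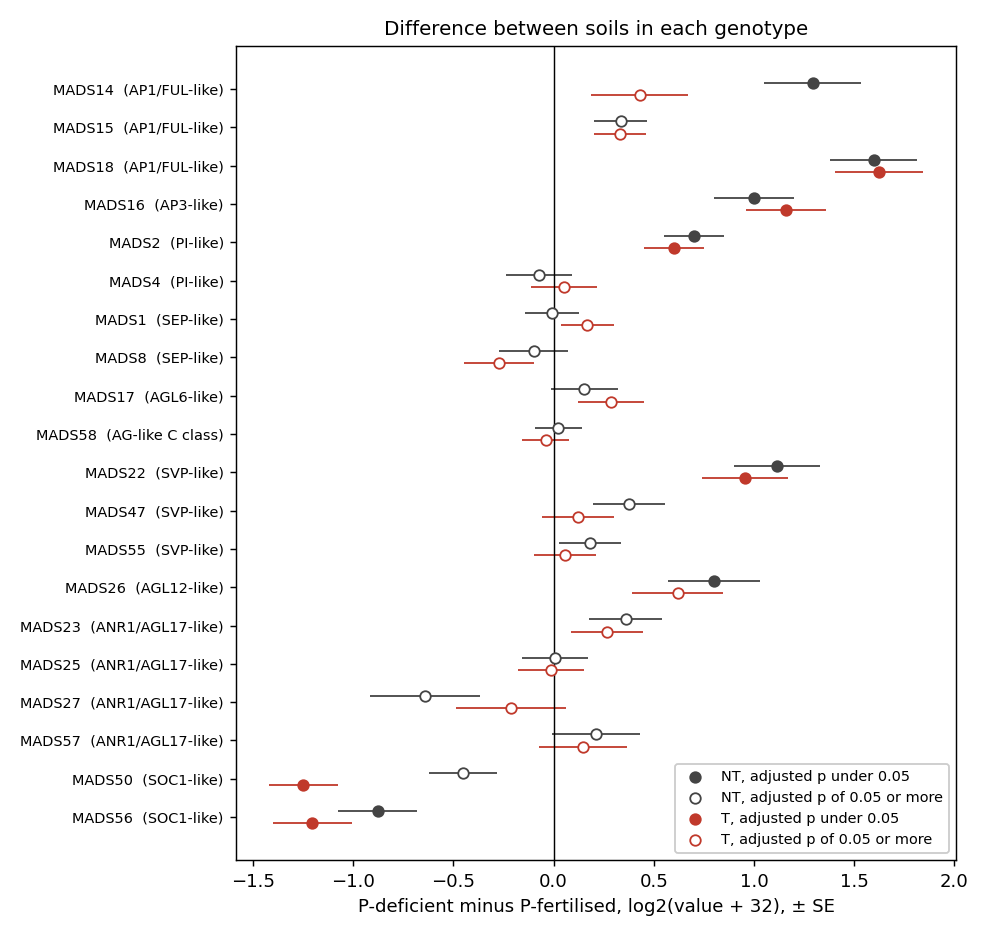
Difference between soils (P-deficient minus P-fertilised, log2(value + 32), with SE bars from limma, 2 arrays per group) of the 20 tested MADS-box genes, in NT (grey) and T (red), ordered by class. Filled points have a limma adjusted p under 0.05 and open points do not. The AP1/FUL-like MADS18, the B class MADS16 and MADS2 and the SVP-like MADS22 lie to the right in both genotypes and the SOC1-like MADS56 to the left, and the pairs of points lie farthest apart for MADS14 (1.29 and 0.43) and MADS50 (-0.45 and -1.25).

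Between T and NT, 0 of 20 members passed in limma in P-deficient soil, in P-fertilised soil or over both soils, with 2, 0 and 2 members at an unadjusted p under 0.05. After adjustment 0.108% of all probe sets passed in P-deficient soil, 0.00291% in P-fertilised soil and 0.0321% over both. An unadjusted p under 0.05 was seen for 4551, 897 and 3303 of all 34316 probe sets in the same order. The unadjusted counts of members therefore did not stand out. In P-deficient soil MADS50 and MADS14 had the smallest p of the highest probe sets. MADS50 differed by -0.69 ± 0.17 (limma adjusted p = 0.196) from the values given above, 9 and 20.7 in T against 50.3 and 36.6 in NT. MADS14 differed by -0.93 ± 0.24 (limma adjusted p = 0.215), and by -0.55 ± 0.19 and -0.56 ± 0.12 on its other tested probe sets (limma adjusted p = 0.289 and 0.172). The second probe set of MADS27 differed by -0.67 ± 0.17 (limma adjusted p = 0.22), while its highest probe set differed by 0.18. MADS4 came next, at 80.6 and 83 in T against 54.1 and 65.7 in NT (0.31 ± 0.16, limma adjusted p = 0.456).

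The T and NT arrays of P-deficient soil did not overlap for 8 of the 20 tested members, while this held for 40.5% of all tested probe sets. In P-fertilised soil it held for 8 of 20 members and for 36.5% of all tested probe sets, so neither share stood out. The GAPDH ratios of 198 and 3.05 belong to the T arrays behind the first of these counts. With that ratio as a covariate the difference of MADS14 was -0.36 and that of MADS50 -0.43 (limma adjusted p = 0.924 and 0.913), and without T replicate 1 they were -0.54 and -0.51 (0.637 and 0.653). Without T replicate 2, MADS14 was -1.32, but T in P-deficient soil then rested on 1 array alone, the one with the GAPDH ratio of 198.

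In P-fertilised soil the 3 members with the smallest p were MADS22 (0.26 ± 0.21), MADS25 (-0.20 ± 0.17) and MADS4 (0.19 ± 0.16), each with a limma adjusted p of 1. Over both soils they were MADS14 (-0.50 ± 0.17, limma adjusted p = 0.457), MADS50 (-0.29 ± 0.12, 0.507) and MADS4 (0.25 ± 0.12, 0.536). For the interaction they were MADS50 (-0.80 ± 0.24, 0.829), MADS14 (-0.86 ± 0.34, 0.829) and MADS56 (-0.33 ± 0.28, 0.907). In P-fertilised soil the differences of all 20 lay between -0.25 and 0.26.

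**Figure D5:**
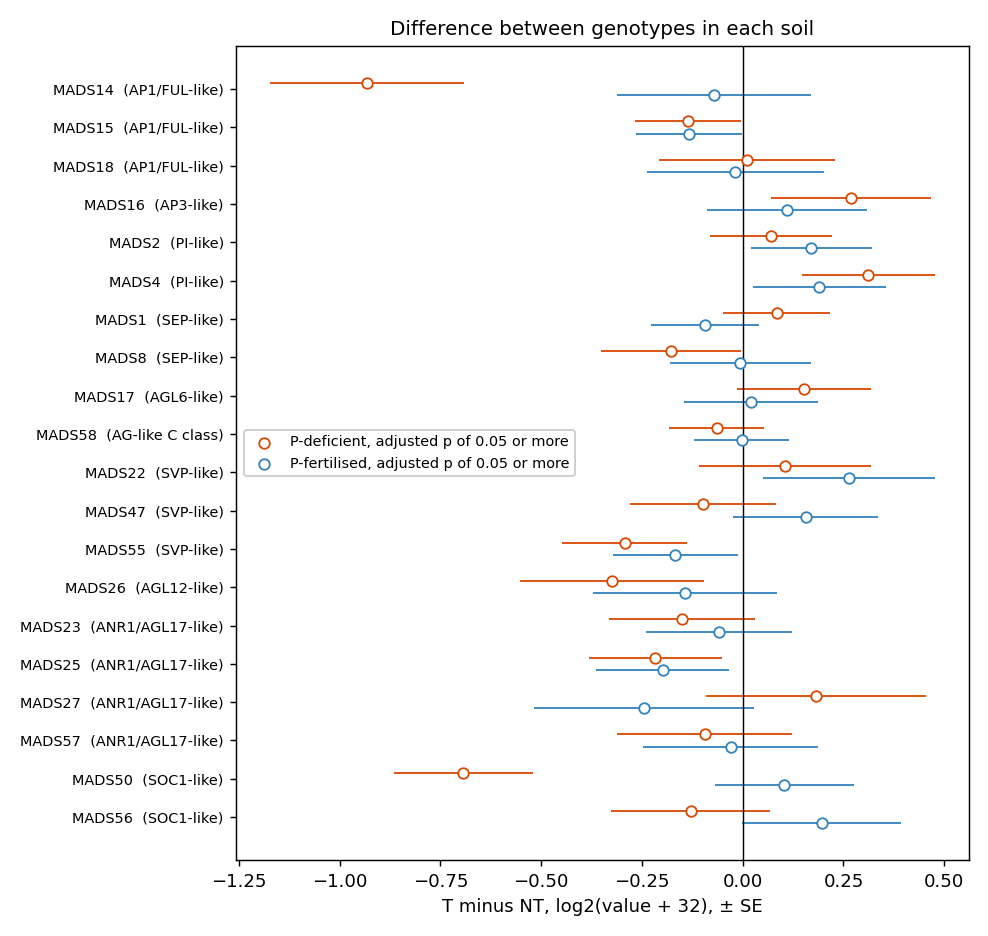
Difference between genotypes (T minus NT, log2(value + 32), with SE bars from limma, 2 arrays per group) of the 20 tested MADS-box genes in P-deficient (orange) and P-fertilised soil (blue). All points are open, since none had a limma adjusted p under 0.05, and MADS14 (-0.93) and MADS50 (-0.69) in P-deficient soil lie farthest from 0.

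Genes that act with MADS-box genes were followed in 3 lists. Of 15 flowering time genes found by name, 11 were tested, and 1 rose and 4 fell between soils, where 47.1% of all probe sets passed (22.3% higher and 24.8% lower), so this count was near the background. PRR37, a clock-related gene that delays flowering in long days, read 56.6 to 103.1 in P-deficient and 34 to 48.4 in P-fertilised roots (0.67 ± 0.14, limma adjusted p = 0.0052). DTH8, a subunit of the NF-Y complex, fell by 0.60 (SE 0.14, limma adjusted p = 0.00688). It reached the filter limit only through the P-fertilised arrays, and its limma adjusted p without any filter was 0.0196. GI, a clock gene upstream of flowering, fell by 0.63 (SE 0.17, limma adjusted p = 0.0165) and read 680.6 and 1163 in T against 1323 and 1754 in NT in P-deficient soil. PHYA, a phytochrome gene, fell by 0.44 (SE 0.14, limma adjusted p = 0.0298), and the fourth lower gene, named after its values were seen, was Hd16, a casein kinase gene, at -0.36 ± 0.11 (0.0301). Hd3a, the florigen gene, which is made in leaves and was also named outside the rule, read 2.4 to 26.6 in roots (-0.10 ± 0.19, limma adjusted p = 0.675).

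Of 7 inflorescence and meristem genes 5 were tested. LAX1, needed for panicle branches, rose by 0.53 ± 0.18 (limma adjusted p = 0.0391), and SPL14, a squamosa-promoter-binding gene of plant form, differed by -0.43 ± 0.13 (limma adjusted p = 0.0294). SPL14 reached the filter limit only through the P-fertilised arrays and did not pass without the filter (limma adjusted p = 0.0617). Of 8 nitrate genes 5 were tested, with 1 higher and 2 lower. As 47.1% of all probe sets and 57.8% of genes passed, neither of these short lists stood out by its count. NIA1, a nitrate reductase gene, read 84 to 145.9 in P-deficient and 268 to 327.1 in P-fertilised roots (-1.18 ± 0.16, limma adjusted p = 0.000403). NLP1, a nitrate response regulator, rose by 1.02 ± 0.11 (limma adjusted p = 0.000148), and NRT2.3, a nitrate transporter gene, fell by 0.64 (SE 0.20, limma adjusted p = 0.0287). Medians over the tested genes were -0.11 for flowering time, -0.20 for inflorescence genes and -0.20 for nitrate genes, against 0.01 over all tested probe sets. In the flowering time list DTH8 reached the filter limit only through the P-fertilised arrays and Hd1 only through the P-deficient arrays. In the inflorescence list SPL14 and DL reached it only through the P-fertilised arrays. These medians are therefore a description.

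Among markers, 4 of 8 root markers fell and 0 rose. Of all probe sets 47.1% passed (22.3% higher and 24.8% lower), and of genes with 1 probe set each 57.8%, so the share called was near the background. The 4 were the silicon transporter gene LSI2 (-4.78 ± 0.25), the iron-chelator synthesis gene NAAT1 (-2.95 ± 0.18), the iron transporter gene IRT1 (-1.25 ± 0.14) and LSI1 (-0.60 ± 0.12), with limma adjusted p-values of 2.53e-06, 5.11e-06, 0.000114 and 0.00298. None of the 4 green tissue markers or the 5 tested anther and spikelet markers passed over both genotypes. Of the anther markers left out as dim, RTS and CYP703A3 had all P-deficient arrays above all P-fertilised arrays, while TDR and C6 overlapped. That order was seen in 8.04% of all dim probe sets. The part of other tissues in the MADS-box differences was not tested. On T replicate 2 of P-fertilised soil the chlorophyll-binding protein gene CAB2R read 397.3 against 66.3 on replicate 1 (soil difference in T, limma adjusted p = 0.0266). The green tissue markers PETE and RCA read 367.7 against 72.4 and 42.3 against 7.9, while RBCS read 108.8 against 111.6. OSH1, from the inflorescence and meristem list, read 160.2 on that array and 21.9 on replicate 1. On that array the 7 MADS-box genes that rose read below all P-deficient arrays and the 2 that fell above them. Except for MADS14, all P-fertilised arrays had this order, and the part of green or meristem tissue in it was not tested.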

How the data were processed

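Root RNA of 8 samples was measured on Affymetrix rice arrays, 1 array each. The authors deposited linear intensity values for 57381 probe sets. They were made with GCOS per the submitters' processing notes, with version and settings not given in the sources used here, and their means after trimming 2% at each end were 100.01 to 100.02. No detection calls were used, and the number of arrays limits the precision.

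The 187 control probe sets were left out, and of the others the dimmest 40% by mean log2(value + 32) (limit 5.39). The 34316 probe sets left were fitted with 4 group means in limma 3.58.1 under R 4.3.3 (lmFit, eBayes with trend), on 4 residual degrees of freedom (prior, median 4.28), at a threshold of 0.05 after Benjamini-Hochberg adjustment. The fit was tested on simulated data. Probe sets were paired with genes by the platform annotation and named through RefSeq synonyms (assembly ASM3414082v1). Classes came from general knowledge of the family. Named members are all that passed, the 3 with the smallest p where fewer passed, the 6 with the highest mean signal and all of 5 classes known from vegetative organs. From the other lists up to 4 genes each with the smallest p were named, with Hd16 and Hd3a added, and 4 genes whose other names showed a different gene were left out. The members and lists were chosen with earlier results of these data known. Alternatives were a pseudocount of 1 or 100, quantile normalization, no filter or 60% left out, a replicate block, the GAPDH ratio as a covariate, no trend, the next probe set, the compared arrays alone and each array left out.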

Additional observations from a re-analysis of the deposited data

How the results depend on the processing

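The number of MADS-box genes past the threshold between soils over both genotypes was 8 to 10 under all alternatives run, against 9, and the 2 SOC1-like genes, MADS14, MADS16, MADS18, MADS2, MADS22 and MADS26 were called under each. With each array left out in turn it was 8 to 10 over both genotypes, 4 to 8 in NT, 4 to 7 in T, and 0 to 1 for T against NT in P-deficient soil; it was 0 throughout for T against NT in P-fertilised soil, over both soils and for the interaction. Of 366 alternative values for the 22 gene differences that passed, 350 passed again, 16 missed the threshold and none changed sign. Calls of MADS15, and of MADS14 by its next probe set, are a description in these counts. Both probe sets reached the filter limit only through the P-deficient arrays. Sizes moved with the pseudocount: with 1 in place of 32, MADS14 was 1.57, MADS15 1.06 and MADS50 -1.57 over both genotypes, and with 100 MADS14 was 0.45, MADS50 -0.45 and MADS15 0.14. Replicate numbers shared by the groups were not treated as pairs in the main fit. Deviations of same-numbered arrays correlated between -0.26 and 0.21. With 1 replicate difference per group, these values cannot show whether the arrays were paired. With the replicate block the counts were 9 over both genotypes, 7 in NT, 6 in T and 0 in the 4 other comparisons, as without it. Dim signals limit the other 11 members, whose values lie near the low end of the scale.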

Other observations

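Among the 11 dim members, 1 had all 4 P-deficient arrays above all 4 P-fertilised arrays. MADS13, a D class gene of ovule identity, read 3.9 and 2.2 in NT and 5 and 7.7 in T of P-deficient soil and 0.5 to 1.4 in P-fertilised soil. Without the filter it passed over both genotypes at 0.15 ± 0.03 (limma adjusted p = 0.0152). Of all probe sets left out as dim, 8.04% had the same order of arrays. Chosen after their values were seen, 2 dim anther markers also had it. RTS, a gene of the anther tapetum, read 13.6 to 18.4 on the P-deficient arrays and 1 to 2.3 on the P-fertilised arrays. CYP703A3, a pollen wall enzyme gene, read 4 to 11.3 and 0.5 to 3.5. The other 7 of these 9 markers overlapped between soils, and the 5 that were tested had a median difference of -0.17, lower in P-deficient roots. Of these 5, EAT1 and DL reached the filter limit only through the P-fertilised arrays, while RTS and CYP703A3 were left out as dim. The median is therefore a description.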
